A study of Mus musculus with 6 samples.

Results

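Genes that mark blood vessels, red blood cells and macrophages were followed in RNA of the mouse otic vesicle, the epithelial sac that becomes the inner ear. The set held 41 genes, of which 17 mark vascular endothelium, 10 mark erythroid cells and 14 mark macrophages. They were chosen as known markers of each cell class, by name, with earlier results of these data known. Each was read from all probe sets that the platform annotation assigns to that gene alone, 68 probe sets in all. The platform gave 18193 genes at least 1 such probe set, and 12462 of these passed the filter on dim signal and were tested. Of the 41 markers 21 passed, which is 51.2% against 68.5% of all genes, and 20 were too dim to be tested.

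The embryos were dissected at day 11.5 of development. Those called Mest-KO had lost Tbx1 through a conditional knockout with T-Cre, and the controls were T-Cre conditional Tbx1 heterozygotes, so the embryos of both groups carried the recombinase and no array of a wild type entered the comparison. T-Cre acts in early mesoderm, from which endothelium, blood cells and macrophages descend. Each group had 3 arrays, and each array held pooled RNA of the left and right ears of 3 embryos of 1 genotype. Per the labels' protocols, the tissue around the ear was loosened with dispase for 30 min at 37 °C and taken away before RNA was isolated. The markers were therefore read as a measure of the non-otic tissue that stayed with, or lay within, each pool. Whether all of their signal came from such tissue was not tested. The labels call the arrays biological replicates, and p-values set the group difference against the spread between such pools.

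Endothelial cells line vessels and read signals of the VEGF and angiopoietin families through receptor tyrosine kinases. At this stage most circulating red cells are nucleated primitive erythrocytes made in the yolk sac, which carry embryonic globins and turn to haem synthesis under the transcription factors Gata1, Klf1 and Tal1. Embryonic macrophages also come from yolk sac progenitors, settle in most tissues, and take up dying cells through receptors and complement. The otic vesicle itself is made of epithelium and holds none of the 3 classes by descent.

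The labelled tissue was checked against its markers. Oc90, which encodes the main matrix protein of the otoconia, had a normalized intensity from 10890 to 11863 over the 6 arrays, and Epcam, an epithelial adhesion gene, from 6054 to 7831. Tbx1, the targeted gene, had 897, 703 and 717 in Mest-KO and 881, 698 and 778 in control, a log2 difference of -0.027. The otic epithelium also expresses Tbx1 and T-Cre is directed at mesoderm, so this value checks no label. The array Mest-KO 3 stood apart, with a median deposited intensity of 91.0 against 62.1 to 71.0 and a value of 36.4 on the first principal component (33.1% of the variance) against -10.3 to -1.77. In pooled tissue, fewer cells of a class and less RNA per cell cannot be told apart.

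None of the markers differed between the groups past the threshold. With limma, 0 of the 21 tested markers had an adjusted p under 0.05, and the smallest adjusted p was 0.909. Over all tested genes the share past that threshold was 0%. No marker had an unadjusted p under 0.05, against 5.14% of all genes, and in no tested marker did the groups fail to overlap, against 10.6% of all genes. Of the 28 probe sets of the markers that could be tested singly, 0 passed at an adjusted p under 0.05, against 0% of all probe sets. At an unadjusted p under 0.05 there was 1, against 3.98% of all probe sets, and the same probe set was the 1 whose groups did not overlap, against 9.37%.

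**Figure D1:**
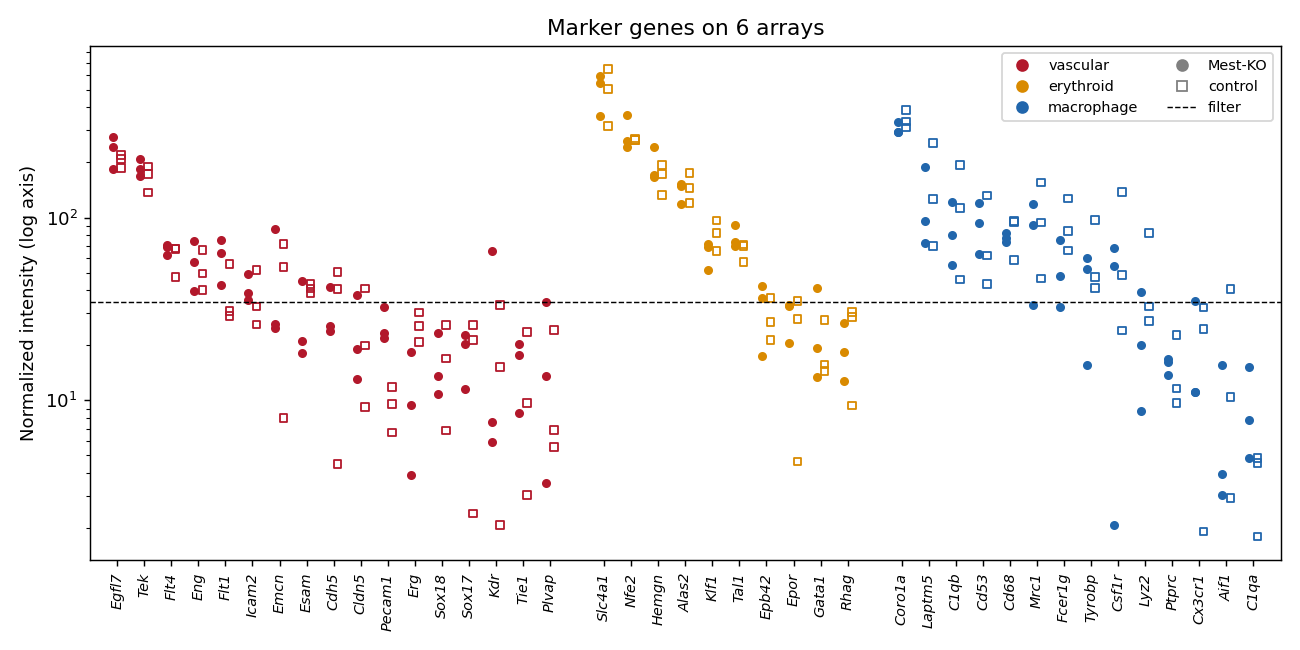
Normalized intensity (log axis) of the 41 marker genes on each of the 6 arrays, ordered within each class by mean level; filled circles are Mest-KO arrays, open squares are control arrays, and the dashed line is the filter at 34.4. In each of the 21 tested genes the circles and the squares overlap, and below the filter they separate in Pecam1 and Erg.

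The 3 classes were not alike in how much they varied between arrays. The residual SD of a gene, the spread within groups on the log2 scale, had a median of 0.751 over the 8 tested macrophage genes, 0.397 over the 7 vascular genes and 0.253 over the 6 erythroid genes, against 0.153 over all genes. The highest array lay above the lowest by a median factor of 3.79 in macrophage genes, 1.88 in vascular genes, 1.71 in erythroid genes and 1.34 in all genes. The median normalized intensity of the tested markers was 79.1, against 640 over all tested genes, and the part of signal level in these factors was not tested.

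Averaged over genes, the log2 level of the macrophage class was 6.32, 6.85 and 5.98 in Mest-KO and 7.34, 6.48 and 6.19 in control. That of the vascular class was 5.96, 6.51 and 6.28 in Mest-KO and 6.26, 6.11 and 5.59 in control. That of the erythroid class was 7.18, 7.52 and 7.33 in Mest-KO and 7.50, 7.13 and 7.29 in control. The groups overlapped in all 3 classes. By this mean, control 1 was highest for macrophage genes, Mest-KO 2 for vascular and erythroid genes, and control 3 lowest for vascular genes. By summed intensity the highest array was control 1 for erythroid genes, at 1428 against 1415 in Mest-KO 2, and Mest-KO 3 for vascular genes, at 749 against 746 in Mest-KO 2. From the lowest to the highest array the classes spanned 1.36, 0.912 and 0.391 log2 units, whereas 9 genes of the otic epithelium spanned 0.148. The median normalized intensity was 79.1, 52.9 and 159 in the classes and 3788 in the otic epithelium. The part of signal level in these spans was not tested.

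The difference between the group means of the class levels, Mest-KO minus control, was 0.26 for vascular, 0.034 for erythroid and -0.29 for macrophage genes. The SD between arrays (n = 3 per group) was 0.276 in Mest-KO and 0.350 in control for vascular genes, 0.169 and 0.189 for erythroid genes, and 0.436 and 0.598 for macrophage genes. Each difference was therefore smaller than the spread between pools of 1 genotype. The vascular difference was 0.061 without control 3, 0.13 without Mest-KO 2 and 0.40 with the deposited scaling alone. The macrophage difference was 0.048 without control 1, -0.087 without Mest-KO 3 and -0.49 with the mean of each gene's probe sets. With the deposited scaling alone the macrophage difference was -0.22. The erythroid difference was -0.057 without control 2, -0.054 without Mest-KO 2 and -0.029 with median centring.

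**Figure D2:**
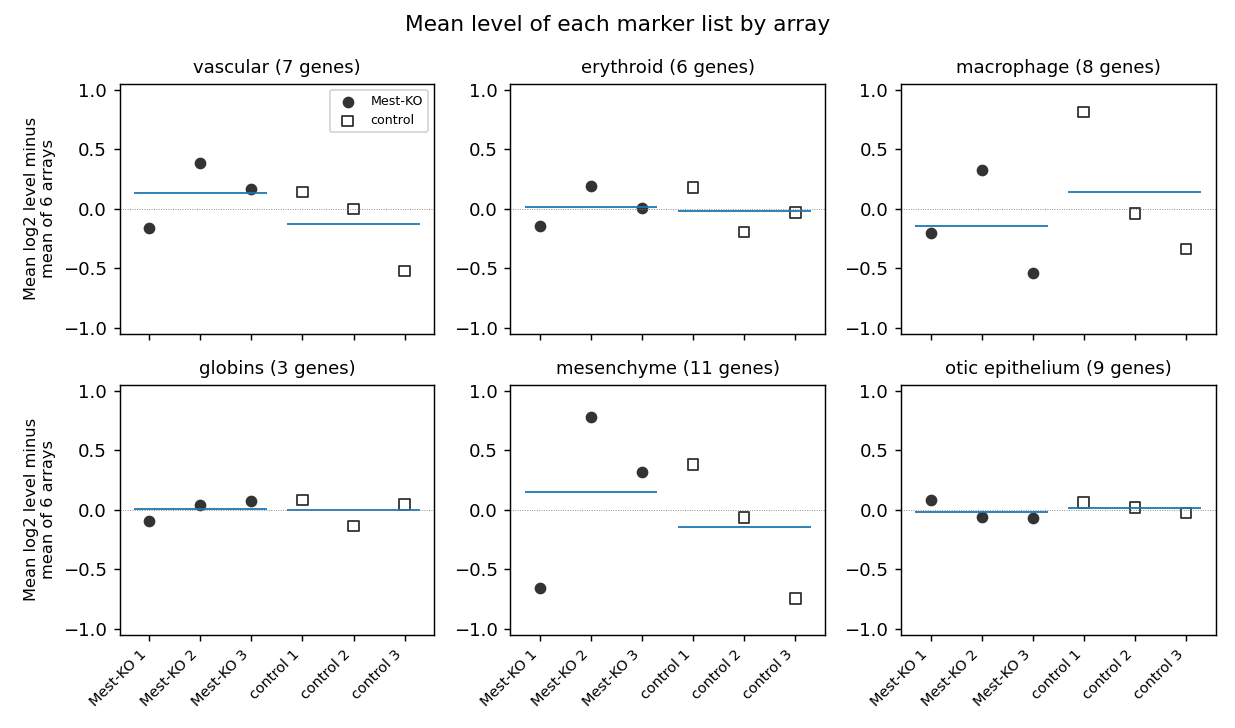
Mean log2 level of 6 marker lists on each array, minus the mean of the 6 arrays (y axis, log2 units); filled circles are Mest-KO arrays, open squares are control arrays and lines are group means. Macrophage and mesenchyme lists span 1.36 and 1.52 log2 units over the arrays, the globins 0.218 and the otic epithelium 0.148, and the groups overlap in every panel. The lists differ in signal level, with a median normalized intensity of 79.1 for macrophage and 3788 for otic epithelium genes.

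Among the vascular markers the tested ones were receptors (Flt1, Flt4, Tek, Eng), secreted and surface proteins (Egfl7, Emcn, Icam2), and none was a transcription factor. All 7 had a higher mean log2 level in Mest-KO, with a median log2 change of 0.18 and a range from 0.12 to 0.69, against 6117 higher and 6345 lower among all genes, with a median of -0.003. The 7 genes share the same pools, and the count of higher genes was 4 of 7 without control 3, 5 of 7 without Mest-KO 2 and 7 of 7 without Mest-KO 3. Emcn passed the filter only with its Mest-KO mean above it, while Esam, above it only in its control mean and with a log2 difference of -0.66, was left out. With no filter 15 of the 17 vascular markers were higher and 2 lower in Mest-KO.

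Flt1, which encodes VEGF receptor 1, a high-affinity receptor that also serves as a trap for VEGF, had the smallest p of the class. Its normalized intensity was 42.8, 64.1 and 75.1 in Mest-KO and 55.6, 28.9 and 30.7 in control. Mest-KO 3 and Mest-KO 2 were the highest arrays, but control 1 lay above Mest-KO 1, so the groups overlapped. The log2 change was 0.69 (SE 0.315, 95% confidence interval from -0.075 to 1.45, limma adjusted p = 0.909). The other 3 probe sets of Flt1 were all below the filter and gave 0.82, 0.86 and 0.98.

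Tek encodes Tie2, the receptor of the angiopoietins. Its normalized intensity was 185, 169 and 208 in Mest-KO and 137, 174 and 190 in control. Control 1 was the lowest array and the other 5 lay close together, with a log2 change of 0.17 (SE 0.149, limma adjusted p = 0.909), which was 0.038 without control 1, 0.098 without Mest-KO 3 and 0.27 without control 3. Flt4, which encodes VEGF receptor 3, a receptor of veins and lymphatics and a described target of Tbx1 in endothelium, had 70.8, 62.2 and 69.1 in Mest-KO and 67.5, 47.3 and 67.6 in control. All but control 2 lay between 62.2 and 70.8, and the log2 change was 0.17 (SE 0.160), or -0.0058 without control 2. Its second probe set gave 0.23.

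Egfl7, which encodes a matrix protein secreted by endothelium, was read by 4 probe sets, all of them tested. The brightest gave 185, 242 and 275 in Mest-KO and 219, 209 and 186 in control, with groups that overlapped and a log2 change of 0.18 (SE 0.162, limma adjusted p = 0.909). That change was 0.050 without Mest-KO 3, 0.11 without control 3 and 0.33 without Mest-KO 1. A dimmer probe set was the marker probe set with an unadjusted p under 0.05, at 53.1, 53.1 and 101 in Mest-KO and 34.9, 33.4 and 42.8 in control. Every Mest-KO array of it lay above every control, with Mest-KO 3 highest, and the log2 change was 0.84 (SE 0.279, limma adjusted p = 0.969). The other probe sets gave 0.022 and 0.26, so the 4 probe sets did not give 1 size of change. Some probe sets of Egfl7, Laptm5, Slc4a1, C1qb and Sox17 are of the type that the manufacturer marks as open to cross-hybridisation. Among them are the brightest ones of Egfl7, Laptm5, C1qb and Sox17, and every tested one of Laptm5 and C1qb. The C1qb probe set of another type lay below the filter, with a mean of 5.53.

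Of the other tested vascular markers, Eng, the TGF-beta co-receptor endoglin, ranged from 39.4 to 74.3 over the arrays, and Icam2, an adhesion protein of endothelium, from 25.9 to 51.7. Emcn, which encodes the endothelial sialomucin endomucin, ranged from 8.01 in control 3 to 86.5 in Mest-KO 2, and its log2 change of 0.29 had an SE of 0.921. The signs of Emcn, Eng and Icam2 changed when control 3 was left out.

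The 10 vascular markers below the filter included the receptor genes Kdr and Tie1, the junction genes Pecam1, Cdh5, Cldn5 and Esam, the transcription factor genes Erg, Sox17 and Sox18, and Plvap, a component of fenestral diaphragms. Their mean levels ran from 10.7 to 32.5. Those nearest to the filter at 34.4 were Esam at 32.5 on the dim side and Emcn at 34.6 on the tested side. Among these 10 genes the groups did not overlap in 2, against 8.65% of all 5731 genes below the filter, both named here because of those values. Pecam1, a junction protein of endothelium and some blood cells, had 32.6, 23.3 and 21.9 in Mest-KO and 6.67, 9.54 and 11.9 in control. Erg, an ETS transcription factor of endothelium, ran the other way, with 18.4, 9.44 and 3.90 in Mest-KO and 30.2, 20.8 and 25.4 in control. All these values lie below the filter, where the depth of signal limits any reading. When all 18193 genes were tested without a filter, Pecam1 and Erg had log2 changes of 1.49 and -1.52, and the smallest limma adjusted p of any marker was 0.733. The second Erg probe set gave 0.25. Kdr, the main signalling receptor of VEGF, had 65.2 in Mest-KO 2 and 33.4 in control 3, and between 2.08 and 15.2 on the other 4 arrays.

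The ligands and receptors of VEGF and angiopoietin signalling were read as a further list of 14 genes, which holds 5 of the markers. Of 12 tested, 8 lay higher and 4 lay lower in Mest-KO, with 0 past the adjusted threshold in limma and 4 with an unadjusted p under 0.05, all 4 ligands whose groups did not overlap, where 5.14% of all genes had such a p and 10.6% such groups. Vegfa, the main growth factor of vessels, had 489, 406 and 336 in Mest-KO and 272, 246 and 282 in control. All 3 Mest-KO arrays lay above the controls, with a log2 change of 0.61 (SE 0.151, limma adjusted p = 0.777), but a second probe set gave -0.15. Angpt1, the activating ligand of Tie2, had 136, 190 and 182 in Mest-KO and 324, 257 and 219 in control. All 3 Mest-KO arrays lay below the controls, with a log2 change of -0.65 (SE 0.191, limma adjusted p = 0.878), and a second probe set below the filter gave -2.29. Vegfd, a ligand of VEGF receptor 3, had a log2 change of 0.91, with 0.64 and 1.54 at its other probe sets, and Pgf, a ligand of VEGF receptor 1, one of -0.35, and both had a limma adjusted p of 0.909. Nrp2, a co-receptor and the brightest of the list, had a log2 change of 0.094 (SE 0.138), which was -0.062 with median centring.

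Of 23 further endothelial genes 13 were tested, 9 higher and 4 lower in Mest-KO, and 0 passed the adjusted threshold in limma. At an unadjusted p under 0.05 there was 1, against 5.14% of all genes. It was Efnb2, an arterial ligand gene that is not confined to vessels, with 4151, 3715 and 3498 in Mest-KO and 4885, 4622 and 4769 in control. The Mest-KO arrays were all lower, with a log2 change of -0.33 (SE 0.0935, limma adjusted p = 0.836). Its 3 other probe sets gave -0.22, -0.29 and -0.56. The groups did not overlap in 2 of the 13, against 10.6% of all genes, and Thbd was the other. Thbd ran the other way, with 193, 610 and 254 in Mest-KO and 185, 182 and 166 in control. Its log2 change was 0.81 (SE 0.406, limma adjusted p = 0.909).

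Genes of mesenchyme, the connective tissue around vessels and vesicle, had their highest and lowest mean level on the same arrays as the vascular ones. The mean log2 level of 11 mesenchyme genes was 7.78, 9.22 and 8.76 in Mest-KO and 8.82, 8.37 and 7.69 in control. Mest-KO 2 had the highest and control 3 the lowest mean for the vascular markers, the further endothelial genes and the mesenchyme genes. The summed intensity of the mesenchyme genes ran from 4130 to 8168 in Mest-KO and from 3939 to 6946 in control, and none was at 0. Singly, 9 of 11 were highest in Mest-KO 2 and 8 of 11 were lowest in control 3, against 21.7% and 17.4% of all genes. Of the 7 vascular markers, 2 were highest in Mest-KO 2 and 2 lowest in control 3, or 28.6% each. Another 3 were highest in Mest-KO 3, against 16.8% of all genes. The part of mesenchyme RNA in the vascular values was not tested.

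Among the erythroid markers the tested ones were Slc4a1 and Alas2, which encode the band 3 anion exchanger and the erythroid enzyme of the first step of haem synthesis, and the nuclear factor genes Klf1, Nfe2, Tal1 and Hemgn. Of these 6, 4 lay higher and 2 lay lower in Mest-KO, with a median log2 change of 0.073 and a range from -0.34 to 0.23.

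Erythroid genes are known targets of Gata1, which binds sites with a GATA core, and promoters were searched for AGATAA or TGATAA on either strand. Of the 41 markers 29 had a promoter entry in RefSeq (GRCm38.p6), and the 250 bases before the start site were read. A match was found in 7 of 8 erythroid genes, 2 of 10 vascular genes and 1 of 11 macrophage genes, against 18.8% of all 27025 genes and 16.6% of all 32851 promoters. Gata1 was the erythroid gene without a match, and Slc4a1 and Nfe2 had no entry. The sequences of 3 tested erythroid genes are shown 5′ to 3′ on the gene's own strand, with the match in capitals, because 7 of the 8 erythroid genes with an entry hold it. Alas2 lies at chrX:150547167-150547416 on the plus strand, Klf1 at chr8:84901732-84901981 on the plus strand and Hemgn at chr4:46404184-46404433 on the minus strand.
Alas2: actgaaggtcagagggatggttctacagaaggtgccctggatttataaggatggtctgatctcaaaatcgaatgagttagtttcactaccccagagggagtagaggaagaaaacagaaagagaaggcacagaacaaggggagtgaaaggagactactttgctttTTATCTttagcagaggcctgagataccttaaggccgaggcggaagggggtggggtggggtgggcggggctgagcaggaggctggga
Klf1: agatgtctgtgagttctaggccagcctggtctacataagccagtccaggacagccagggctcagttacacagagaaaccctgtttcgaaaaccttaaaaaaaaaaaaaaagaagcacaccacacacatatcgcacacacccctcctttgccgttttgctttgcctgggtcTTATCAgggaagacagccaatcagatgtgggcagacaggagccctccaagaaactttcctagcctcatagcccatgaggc
Hemgn: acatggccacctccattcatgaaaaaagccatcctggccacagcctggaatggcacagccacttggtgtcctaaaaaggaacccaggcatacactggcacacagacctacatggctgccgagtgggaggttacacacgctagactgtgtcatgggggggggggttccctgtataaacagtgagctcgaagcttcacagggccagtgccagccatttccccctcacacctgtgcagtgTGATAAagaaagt
The matches begin at -86, -80 and -13 relative to the start site, and TTATCT and TTATCA are the reverse strand forms. A match describes these letters and does not show a bound site.

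Slc4a1 had the brightest erythroid probe set, with 358, 593 and 541 in Mest-KO and 647, 316 and 505 in control. Control 1 was highest and control 2 lowest, so the 2 ends of its range lay in 1 group, and the log2 change was 0.051 (SE 0.308, limma adjusted p = 0.985). Its second tested probe set gave 0.27. Nfe2, a subunit of a factor that acts in globin and platelet genes, had 364, 263 and 243 in Mest-KO and 266, 270 and 266 in control. Only Mest-KO 1 stood out, and the log2 change was 0.095 (SE 0.159), or -0.079 without that array.

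Klf1, the erythroid Krüppel-like factor, had the smallest p of the class, with 51.8, 71.8 and 69.1 in Mest-KO and 96.3, 65.8 and 82.2 in control. Control 2 lay within the Mest-KO range, and the log2 change was -0.34 (SE 0.187, 95% confidence interval from -0.79 to 0.11, limma adjusted p = 0.909), which was -0.19 without Mest-KO 1 and -0.21 without control 1. Tal1, a factor needed to start blood formation and also present in endothelial precursors, had 69.7, 90.8 and 73.3 in Mest-KO and 71.3, 57.1 and 70.1 in control. Mest-KO 2 was highest and the other arrays overlapped, with a log2 change of 0.23 (SE 0.143, limma adjusted p = 0.909), or 0.12 without that array and 0.13 without control 2.

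Hemgn, a nuclear protein of blood progenitors, had 166, 244 and 172 in Mest-KO and 173, 193 and 133 in control. The groups overlapped around a high Mest-KO 2 and a low control 3, with a log2 change of 0.21 (SE 0.203, limma adjusted p = 0.909), which was 0.039 without Mest-KO 2, 0.062 without control 3 and 0.33 without control 2. Alas2 ranged from 119 in Mest-KO 1 to 175 in control 1, with a log2 change of -0.053 (SE 0.171). The 4 erythroid markers below the filter were Gata1, the erythropoietin receptor gene Epor, the Rh complex gene Rhag and the membrane skeleton gene Epb42. Their means ran from 19.2 to 28.7 and none had groups that did not overlap.

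The embryonic globins were read at high signal. Hbb-y ranged from 12731 to 15547, Hba-x from 5962 to 7345 and Hbb-bh1 from 4712 to 5649. Their log2 changes were 0.065, -0.082 and 0.042, and that of Hbb-y was -0.17 with median centring and -0.020 with the deposited scaling alone. The probe set of the alpha globin gene Hba-a1 lay below the filter on every array, and probe sets shared between adult globins were not used here. The globin list ran from 12.82 to 13.03 on the log2 scale, a span of 0.218.

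Mest-KO 1 and control 2, 1 pool of each genotype, were the lowest 2 arrays for Slc4a1, Alas2, Klf1 and Tal1, which is 4 of 6 erythroid markers, and for all 3 globins tested. Among 10 further erythroid genes they were lowest in 4, which were Tfr2, Ermap, Kel and Slc25a37. They were lowest in 0 of 7 vascular markers, 0 of 8 macrophage markers and 5.97% of all genes. This pattern was noticed after the values had been seen and has no test.

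Of 15 further erythroid genes 10 were tested, 6 on the higher and 4 on the lower side in Mest-KO, with 0 past the adjusted threshold in limma. At an unadjusted p under 0.05 there was 1, against 5.14% of all genes, and the same gene was the 1 whose groups did not overlap, against 10.6%. It was Sptb, the erythroid beta-spectrin gene that other tissues also express, with 29.2, 36.6 and 20.4 in Mest-KO and 50.2, 63.0 and 55.2 in control. All Mest-KO arrays were lower, with a log2 change of -1.0 (SE 0.222, limma adjusted p = 0.659), but a second probe set, below the filter, gave 0.93. The transferrin receptor gene Tfrc, the brightest of that list and not confined to red cells, had a log2 change of 0.044, which was -0.14 with median centring and -0.13 with the mean of its probe sets. Kitl, which encodes the ligand of Kit on blood progenitors, was the 1 tested gene of 5 haematopoietic ligands and had a log2 change of 0.47 (SE 0.272, limma adjusted p = 0.909). That change was 0.23 without Mest-KO 2 and 0.28 without control 3, and 0.049 with the mean of its probe sets, of which the other 3 gave -0.071, 0.097 and -0.30.

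The macrophage markers tested were the surface and adaptor genes Fcer1g, Tyrobp, Mrc1, Cd53 and Cd68, the lysosomal membrane gene Laptm5, the actin regulator Coro1a and the complement gene C1qb. Of these 8, 7 were lower and 1 was higher in Mest-KO, with a median log2 change of -0.28 and a range from -0.86 to 0.33. Control 1 was the highest array in all 8, and in 12 of the 14 macrophage markers when the 6 untested ones are counted, Cx3cr1 and C1qa being the exceptions. These counts take each gene's brightest probe set, and singly 9 of the 10 tested and 17 of all 27 macrophage probe sets were highest there. The second tested probe set of Coro1a was highest in control 2, at 339 against 321 in control 1, and 2 of the 3 Csf1r probe sets were highest on other arrays. Control 1 was the highest array for 17.4% of all genes. Without it, 5 of the 8 lay higher in Mest-KO and 3 lay lower, and the median log2 change was 0.083. Without Mest-KO 3, 3 lay higher and 5 lay lower, with a median of -0.023.

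Promoters were also searched for AGGAAG on either strand, the core of many sites of ETS factors, a family that includes the macrophage regulator PU.1 and the endothelial factor Erg. A match was found in 7 of 11 macrophage genes, 6 of 10 vascular genes and 2 of 8 erythroid genes, against 32.3% of all genes and 29.5% of all promoters. The longer form GAGGAAGT, which contains AGGAAG, was found in 0 of 11 macrophage genes, 1 of 10 vascular genes and 0 of 8 erythroid genes, against 2.79% of all genes. GGAAGT, which can overlap AGGAAG, was in 5 of 11, 5 of 10 and 0 of 8, against 22.2%. A set of Klf1-type motifs, CCACACCC or CCACGCCC, was in 0 of 8 erythroid, 2 of 10 vascular and 0 of 11 macrophage genes, against 8.81%. All were searched on either strand. The promoters of 3 of the 7 macrophage genes with an AGGAAG match are shown in the same way, Laptm5 at chr4:130913066-130913315 on the plus strand, Mrc1 at chr2:14229164-14229413 on the plus strand and Fcer1g at chr1:171234350-171234599 on the minus strand.
Laptm5: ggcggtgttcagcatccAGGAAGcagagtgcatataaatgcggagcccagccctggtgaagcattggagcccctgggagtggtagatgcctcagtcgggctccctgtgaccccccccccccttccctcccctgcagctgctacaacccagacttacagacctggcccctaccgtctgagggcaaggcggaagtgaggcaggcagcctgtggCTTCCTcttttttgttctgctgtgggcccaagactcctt
Mrc1: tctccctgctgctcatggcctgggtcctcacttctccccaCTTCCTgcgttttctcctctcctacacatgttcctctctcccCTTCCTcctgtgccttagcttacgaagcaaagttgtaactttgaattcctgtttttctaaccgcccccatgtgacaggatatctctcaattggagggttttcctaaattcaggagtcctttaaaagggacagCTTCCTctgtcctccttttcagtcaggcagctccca
Fcer1g: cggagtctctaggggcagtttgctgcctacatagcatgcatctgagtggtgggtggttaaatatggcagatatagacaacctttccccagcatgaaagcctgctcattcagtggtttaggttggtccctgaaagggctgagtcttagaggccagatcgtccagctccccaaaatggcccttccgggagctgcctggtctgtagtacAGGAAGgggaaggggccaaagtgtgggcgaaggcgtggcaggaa
CTTCCT is the reverse strand form, and these 3 promoters hold 2, 3 and 1 matches.

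Fcer1g, which encodes the signalling gamma chain of Fc receptors, had the smallest p of all markers. Its normalized intensity was 32.4, 75.0 and 48.2 in Mest-KO and 127, 84.2 and 65.9 in control. Control 1 was highest and Mest-KO 1 lowest, and Mest-KO 2 lay above control 3, so the groups overlapped. The log2 change was -0.86 (SE 0.362, 95% confidence interval from -1.74 to 0.011, limma adjusted p = 0.909), and it was -0.56 without Mest-KO 1.

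Tyrobp, the adaptor DAP12 that signals for receptors such as Trem2, had 52.1, 59.8 and 15.6 in Mest-KO and 97.1, 47.2 and 41.2 in control. Mest-KO 3 was low and control 1 high, with the other 4 arrays close together and a log2 change of -0.65 (SE 0.582, limma adjusted p = 0.909). That change was -0.040 without Mest-KO 3, -0.27 without control 1 and -0.99 without Mest-KO 2. Laptm5, a lysosomal membrane protein of blood cells, had 95.9, 190 and 72.6 in Mest-KO and 256, 126 and 70.1 in control. Both ends of its range lay among the controls, and the log2 change of -0.26 (SE 0.545) was 0.22 without control 1 and 0.045 without Mest-KO 3. Its 4 other probe sets were below the filter and gave from -1.15 to -0.22.

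Coro1a, an actin regulator of leukocytes that is also expressed in neurons, varied least of the class, with 292, 333 and 292 in Mest-KO and 388, 310 and 335 in control. The groups overlapped, with a log2 change of -0.17 (SE 0.116, limma adjusted p = 0.909), which was -0.079 without control 1. C1qb, a chain of the complement starter C1q, ranged from 45.8 in control 3 to 194 in control 1, and Mrc1, the mannose receptor, from 33.3 in Mest-KO 3 to 156 in control 1. Both had a log2 change of -0.30, which was 0.18 and 0.11 without control 1, and -0.021 and 0.26 without Mest-KO 3. With the deposited scaling alone the changes of C1qb and Mrc1 were -0.11 and -0.045. The second tested probe set of C1qb gave -1.24, with 12.5 in Mest-KO 3. Cd68, an endosomal glycoprotein, ranged from 58.7 to 95.9 and Cd53, a tetraspanin of leukocytes, from 43.2 to 132, and Cd53 was the 1 gene of the class that was higher in Mest-KO.

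**Figure D3:**
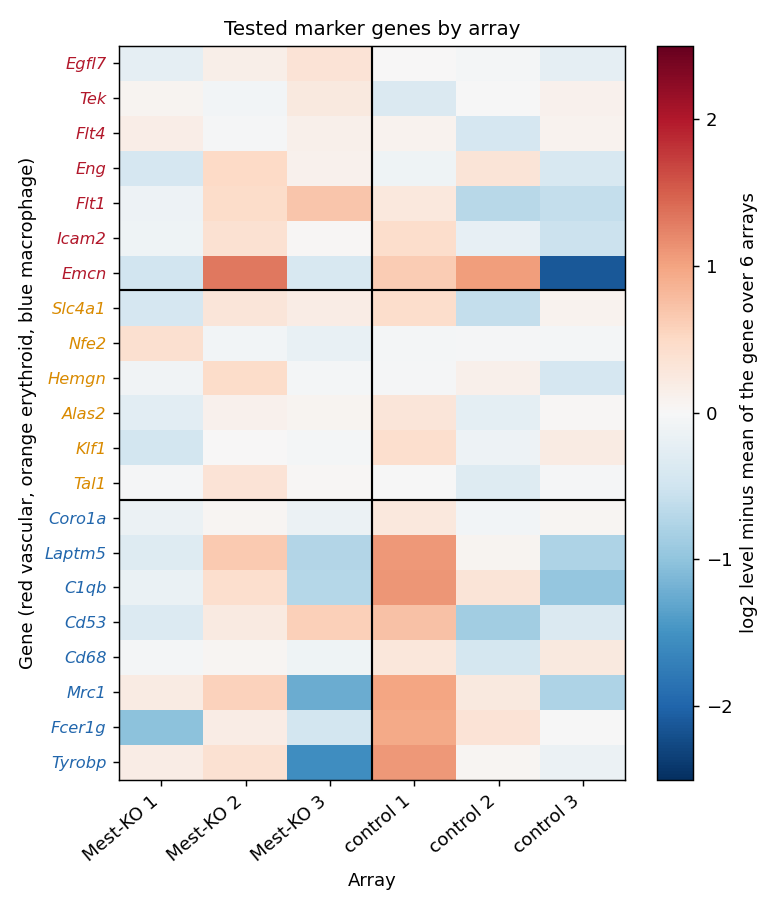
Log2 level of the 21 tested marker genes (rows) on each array (columns), minus the gene's mean over the 6 arrays; red is higher and blue lower, the vertical line parts Mest-KO from control and the horizontal lines part the classes. The 8 macrophage genes are all red in control 1, and Mest-KO 3 and control 3 hold the darkest blue cells, at Tyrobp and Emcn.

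The macrophage markers that were not tested were Csf1r, the receptor of CSF1 that macrophages need, the lysozyme gene Lyz2, the actin-binding gene Aif1, the leukocyte phosphatase gene Ptprc, the chemokine receptor gene Cx3cr1 and the complement gene C1qa. Csf1r had 54.4, 68.5 and 2.08 in Mest-KO and 138, 48.5 and 24.1 in control, just under the filter with a mean of 32.8. Lyz2 had 20.1, 39.1 and 8.74 in Mest-KO and 82.2, 32.6 and 27.3 in control. Both were highest in control 1 and had groups that overlapped. Aif1 had 40.6 in control 1 and at most 15.5 elsewhere, Ptprc and Cx3cr1 did not exceed 34.8, and C1qa did not exceed 15.1.

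Control 1 lay above the mean of the other 2 controls by a median factor of 2.28 in the 8 tested macrophage genes, from 1.2 in Coro1a to 2.72 in Laptm5. The factor was 1.19 in vascular genes, 1.22 in erythroid genes and 1.01 in all genes, of which 0.843% reached a factor of 2. Mesenchyme genes also had their highest mean log2 level among the controls in control 1, at 8.82 against 8.37 and 7.69. For further endothelial genes these values were 7.96 against 7.69 and 7.29, and for macrophage genes 7.34 against 6.48 and 6.19. A high control 1 among the controls was thus not particular to macrophage genes. This comparison within the controls was made after the values had been seen. Of 17 further macrophage genes 2 passed the filter, and both, the protease gene Ctss and the clotting factor gene F13a1, were highest in control 1. Over all 17, the 15 dim ones included, 8 were highest in control 1 and 9 on another array. Ctss had 97.2 there and from 42.3 to 70.5 on the other arrays, and F13a1 had 112 there and from 39.0 to 92.0. Their log2 changes were 0.19 (SE 0.318) and 0.14 (SE 0.405), and neither had a limma unadjusted p under 0.05.

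Other genes were also high in control 1. That array was highest for 3 of 6 erythroid markers, 4 of 10 further erythroid and 5 of 13 further endothelial genes, against 17.4% of all genes. The counts were 1 of 7 vascular markers, 1 of 11 mesenchyme genes and 0 of 3 globins. Acta2 and Tagln, which encode contractile proteins of smooth muscle, had 222 and 172 in control 1, against at most 45.4 and 88.7 on the other arrays. The other tested genes of the same list were not high there, as Rgs5 had 188, its lowest level, and Pdgfrb 193 and Notch3 3315, their second lowest. Notch3 had a mean of 3525, against 233 for Pdgfrb and 255 for Rgs5, and whether its signal came from pericytes was not tested. Cspg4, Kcnj8 and Abcc9 were below the filter and highest in control 2. The summed intensity of the 8 macrophage markers ran from 710 to 1072 in Mest-KO and from 761 to 1446 in control, and it was 1446 in control 1. Of the 7 genes of other leukocytes with a probe set, none above the filter, 2 were highest in control 1. The part of smooth muscle or other leukocyte RNA in the macrophage values was not tested.

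**Figure D4:**
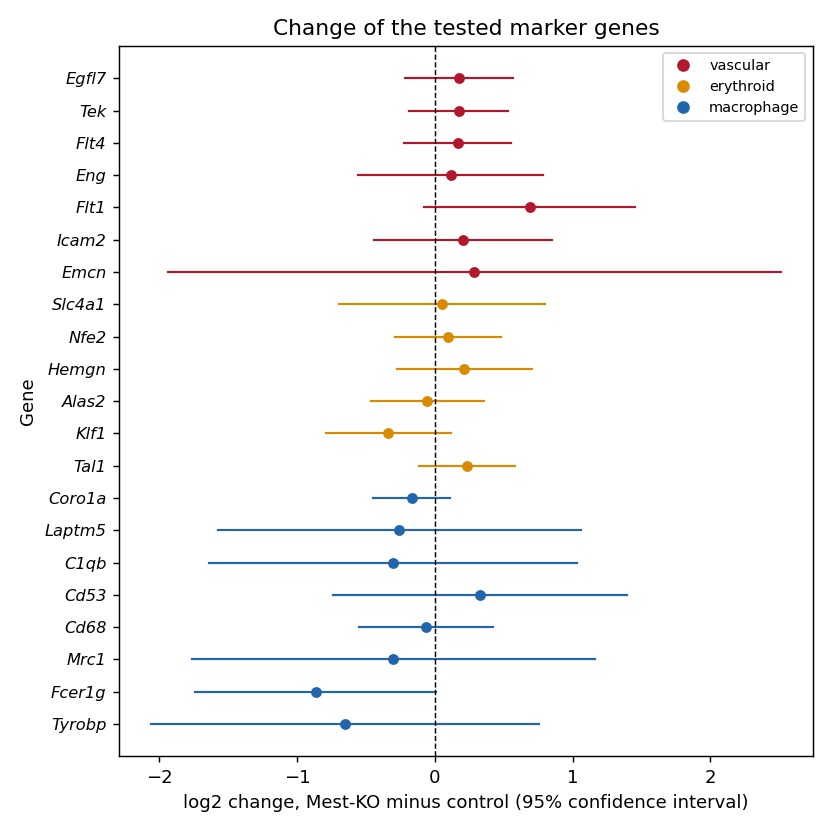
Log2 change, Mest-KO minus control, of the 21 tested marker genes with 95% confidence intervals from the limma fit (x axis), ordered by class and level. Intervals of all 21 genes include 0; that of Emcn runs from -1.94 to 2.51, and that of Coro1a from -0.45 to 0.11.

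The intervals, each from the gene's brightest probe set, give what these arrays could bound. For 13 of the 21 tested markers, among them all 6 erythroid ones, they exclude a change of 1 log2 unit in either direction. They include a fall of 1 log2 unit for Emcn, C1qb, Laptm5, Mrc1, Fcer1g and Tyrobp, and a rise of 1 log2 unit for Flt1, Emcn, C1qb, Laptm5, Mrc1 and Cd53. No intervals are given for the other probe sets. The second tested probe set of Slc4a1 gave 0.27 (SE 0.370), and a dimmer one of Egfl7 gave 0.84 (SE 0.279). The bounds therefore hold only for the probe sets used. A p that missed the threshold thus does not show that the pools of both genotypes held the same amount of vascular or macrophage RNA.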

How the data were processed

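RNA of 6 pools, 300 ng each, was hybridised to Affymetrix mouse arrays. The table deposited by the authors gives 1 linear intensity per probe set, from Affymetrix Expression Console 1.1 per the submitters' processing notes, with a trimmed mean of 500 on every array. How probes were summarised was not given in the sources used here.

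Of 45101 probe sets 64 controls were left out, 34945 had 1 gene symbol, 932 several, and 9160 others are unnamed here. RefSeq identifiers matched 34741. Values were floored at 1, put on a log2 scale and quantile normalized, and are printed on the linear scale as normalized intensity. The brightest probe set stood for its gene. A gene was tested where its mean passed 34.4, the 40th percentile over probe sets, which left 12462 genes, or 27022 probe sets in the fit by probe set. The groups were compared with limma 3.58.1 (R 4.3.3, lmFit and eBayes), with Benjamini-Hochberg adjustment over all features tested and a threshold of 0.05. The steps were tested on simulated data. Arrays limit the precision by their number.

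The markers and the further lists were chosen with earlier results of these data known. Values on every array are given for the 3 markers of smallest p and the 2 brightest of each class, and where groups did not overlap. In further lists the gene of smallest p and the brightest are named. Other genes were named with their values in view. Alternatives were the deposited scaling alone, median centring, a floor of 16, the mean of probe sets, no filter or the 60th percentile, the limma trend, a replicate block, and each array left out with probe sets and filter unchanged. Promoters are RefSeq's, read before the start site.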

Additional observations from a re-analysis of the deposited data

How the results depend on the processing

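The count of genes past the adjusted threshold in limma, 0 of 12462, was 25 with median centring (4 higher and 21 lower in Mest-KO), 7 where 9899 genes above the 60th percentile were tested, and 13 with the trend. It was 0 with the deposited scaling, a floor of 16, the mean of probe sets, no filter, and each array left out. The count of marker genes past the threshold was 0 under each of these settings, as was that of marker probe sets, for which the mean of probe sets was not run. Median centring moved the median change of all genes to -0.14 and left 21.5% of genes higher in Mest-KO, against 49.1% in the main setting. The trend gave 1 marker an unadjusted p under 0.05 in limma, and 760 of all 12462 genes. Median centring gave 1 vascular and 1 macrophage marker such a p (469 of 12459 genes), and no filter gave 2 vascular ones (776 of 18193). With an array left out, every fit but that without Mest-KO 3 gave some, at most 2 of any class. Over these fits 495 to 1074 of 12462 genes had such a p. The cause of these differences was not tested.

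The class differences moved by less than 1 SD under each normalization, floor, probe set rule and filter, and do not depend on the trend or the block. That SD within groups was 0.315 for vascular, 0.179 for erythroid and 0.523 for macrophage genes. It exceeded each difference, so a turn of sign can stay within it. In groups this small, leaving out an array cannot move a difference by 1 SD, so that bound tests nothing there. With an array left out the differences ran from 0.0612 to 0.40 for vascular, from -0.0567 to 0.13 for erythroid and from -0.53 to 0.0480 for macrophage genes. The sign thus turned in the erythroid and macrophage classes. Among single genes the sign turned for Emcn with a floor of 16 (-0.0458), for Alas2 (0.0340), Cd68 (0.0881) and Hbb-y (-0.0200) with the deposited scaling, for Slc4a1 (-0.0723), Nrp2 (-0.0625), Hbb-y (-0.17) and Tfrc (-0.14) with median centring, and for Notch3 (0.0428), Nrp2 (-0.0449), Tfrc (-0.13) and Epcam (0.0583) with the mean of probe sets.

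With an array left out the sign turned for 18 of 38 named genes, whose ranges were Flt4 -0.00576 to 0.25, Emcn -0.68 to 0.88, Icam2 -0.0145 to 0.49, Eng -0.0972 to 0.35, Alas2 -0.19 to 0.0825, Slc4a1 -0.23 to 0.28, Nfe2 -0.0786 to 0.21, C1qb -0.86 to 0.18, Mrc1 -0.76 to 0.26, Laptm5 -0.71 to 0.22, Cd53 -0.0253 to 0.78, Cd68 -0.29 to 0.0562, Notch3 -0.11 to 0.0723, Nrp2 -0.0533 to 0.18, Tfrc -0.0265 to 0.0914, F13a1 -0.21 to 0.55, Ctss -0.0212 to 0.58 and Oc90 -0.0362 to 0.0233.

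For arrays of both groups with the same replicate number, the correlations of their deviations were -0.109, -0.00832 and -0.00734. These values cannot show whether such arrays shared a litter, a dissection or a hybridisation, and that was not tested. With the replicate number as a block 0 genes passed, and 632 had an unadjusted p under 0.05 against 641 without it. Signal limits the rest, since 20 markers lay under the filter.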

Other observations

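Vessels are wrapped by pericytes and smooth muscle cells, whose genes were read as a list of 8. Of 5 tested, 2 lay higher and 3 lay lower in Mest-KO, and 0 passed the adjusted threshold in limma. Tagln, a contractile protein gene, had 64.7, 75.2 and 63.4 in Mest-KO and 172, 86.2 and 88.7 in control, with groups that did not overlap and a log2 change of -0.70 (SE 0.275, limma adjusted p = 0.909), which was -0.37 without control 1. Pdgfrb and Rgs5, genes of pericytes, had log2 changes of 0.61 and 0.51. Notch3, the brightest of the list, had a log2 change of -0.011, which was 0.043 with the mean of its probe sets.

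Megakaryocytes, the source of platelets, share precursors with red cells. Of 7 genes 3 were tested and all 3 were higher in Mest-KO, with Pf4, a platelet chemokine that yolk sac macrophages also express, at 152, 229 and 230 in Mest-KO and 227, 115 and 71.1 in control. Control 1 lay within the Mest-KO range, and the log2 change was 0.71 (SE 0.423, limma adjusted p = 0.909), which was 0.31 without control 3 and 1.15 without control 1. Of 9 genes of other leukocytes 7 had a probe set and 0 passed the filter.

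Snai2, a factor of mesenchyme and neural crest, had 607, 731 and 642 in Mest-KO and 501, 452 and 395 in control, with groups that did not overlap and a log2 change of 0.56 (SE 0.124, limma adjusted p = 0.659). Lum, a proteoglycan gene, had 1129, 1060 and 999.9 in Mest-KO and 1731, 1409 and 1332 in control, with a log2 change of -0.48 (SE 0.123, limma adjusted p = 0.777). In the otic epithelium list of 9 tested genes, 2 were higher and 7 lower in Mest-KO, with log2 changes from -0.11 to 0.031.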
